A study of Mus musculus with 2 samples.

Results

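The 7 genes described here are Gcg, which encodes proglucagon, and 6 genes used to recognise the glucagon-producing alpha cell of the pancreatic islet: Ttr, Gc, Irx1, Irx2, Slc7a2 and Slc38a5. They were chosen by name, and all 7 were found among the 32285 features of both count tables. Single-cell RNA was measured in islets of 12-week-old female C57BL/6 mice, in 1 library labelled as carrying a beta-cell-specific deletion of Spop (KO-labelled below) and in 1 library of Spop fl/fl mice (control). Spop encodes the substrate adaptor of an E3 ubiquitin ligase. The islets were left for 3 days in medium with 10 mM glucose before they were dispersed. The Cre driver, the deleted exons and how many mice went into a library are not given in the sources used here. With 1 library for each genotype there is no test between genotypes, and every interval below is an exact 95% interval that covers counting error only.

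Alpha cells release glucagon when blood glucose is low and when amino acids are high, and glucagon makes the liver release glucose and take up amino acids. Proglucagon is cut to glucagon by the convertase encoded by Pcsk2. Irx1 and Irx2 are Iroquois homeobox transcription factors of the alpha lineage. Ttr encodes transthyretin, the carrier of thyroxine and of retinol-binding protein, and Gc encodes the vitamin D-binding protein, a secreted relative of albumin. Slc7a2 encodes a transporter of cationic amino acids such as arginine. Slc38a5 encodes a glutamine transporter that mouse alpha cells are known to raise when glucagon signalling is blocked.

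In the GENCODE annotation of GRCm38 (mm10), Gcg lies at chr2:62474530-62483650 and Gc at chr5:89417522-89457898, both on the minus strand. Irx1 (chr13:71957921-71963723, minus strand) and Irx2 (chr13:72628820-72634198, plus strand) are 665.1 kb apart. Promoter windows of 300 bases, from 250 before to 50 after the start, were at hand from RefSeq (GRCm38.p6) for 4 of the 7 genes. The 3 printed here belong to Gcg itself and to Irx2 and Gc, which behaved differently in Ppy-led cells in the results below. Both Irx2 and Gc were higher in insulin-led cells with more Gcg. In Ppy-led cells Irx2 was higher with more Gcg, while Gc did not differ with Gcg beyond its intervals. Each reads 5′ to 3′ on the strand of its gene. Capitals mark matches on either strand to TATAAA, the TATA box, and to CANNTG, the E-box.
Gcg, chr2:62483604-62483903, minus strand: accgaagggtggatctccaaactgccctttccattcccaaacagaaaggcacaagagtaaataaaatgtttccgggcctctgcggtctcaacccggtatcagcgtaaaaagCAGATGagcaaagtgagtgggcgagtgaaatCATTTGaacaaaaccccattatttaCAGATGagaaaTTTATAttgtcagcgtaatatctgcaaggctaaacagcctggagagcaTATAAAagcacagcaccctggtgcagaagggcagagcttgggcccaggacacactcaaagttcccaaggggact
Irx2, chr13:72628570-72628869, plus strand: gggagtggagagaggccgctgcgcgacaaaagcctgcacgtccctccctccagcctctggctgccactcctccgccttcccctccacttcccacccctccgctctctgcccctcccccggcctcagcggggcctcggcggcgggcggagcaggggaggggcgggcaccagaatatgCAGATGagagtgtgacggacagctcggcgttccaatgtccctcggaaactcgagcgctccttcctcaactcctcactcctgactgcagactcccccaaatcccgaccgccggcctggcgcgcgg
Gc, chr5:89457849-89458148, minus strand: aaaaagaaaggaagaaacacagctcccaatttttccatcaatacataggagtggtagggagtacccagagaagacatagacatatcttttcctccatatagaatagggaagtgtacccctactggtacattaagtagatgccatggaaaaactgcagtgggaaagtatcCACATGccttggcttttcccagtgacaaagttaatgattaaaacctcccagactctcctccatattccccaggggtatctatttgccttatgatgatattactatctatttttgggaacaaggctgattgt

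The Gcg window held 2 matches to TATAAA, starting 24 and 72 bases before the start of the gene, and 3 E-boxes, starting 139, 108 and 83 bases before it. The Irx2 and Gc windows held 1 E-box each and no match to TATAAA. The other strings searched on both strands were TGTTTAC (the core bound by FOXA factors), TGCTGA and also TAATTA (a homeodomain core), and the 3 windows held none of them. The matches found do not overlap. Of 32851 mouse promoter windows of this length, 13.6% held TATAAA and 72.3% held CANNTG, while TGTTTAC was in 3.65%, TGCTGA in 19.5% and TAATTA in 5.29%. The windows differ in base composition: Irx2 had 69% G and C with 25 CpG dinucleotides, Gcg 47% with 7, and Gc 40.3% with 0. Among all windows the Irx2 share lay at percentile 88.9 and the Gc share at percentile 10.7. A match describes letters in a window and does not show binding.

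The KO-labelled library held 10033 barcodes and 89977773 UMIs, and 8842 barcodes passed the filters of 500 detected genes and no more than 15% mitochondrial UMIs. The control library held 7768 barcodes and 82541585 UMIs, and 6850 barcodes passed. The libraries shared 21 barcodes, 14 of them among the cells kept. Levels are given as the UMIs of a gene for every 1000000 UMIs without the 7 hormone genes Gcg, Ins1, Ins2, Iapp, Sst, Ppy and Pyy, written CPM below, so that a change in hormone RNA does not alter the level of the other genes. Spop itself stood at 98.2 CPM in insulin-led cells of the KO-labelled library and at 76.3 CPM in those of the control library, so its RNA was not lower in the KO-labelled library. Reads here come from the 3′ end of the transcript, and whether they lie outside the deleted part is not given, so this does not check the deletion.

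Cells were sorted by their leading hormone RNA, the largest of Gcg, Ins1 plus Ins2, Sst and Ppy, where it made up at least 1% of the UMIs of the cell. Cells with at least 20 UMIs of mesenchymal, endothelial and macrophage markers were set aside as non-endocrine. Gcg led in 1189 cells of the KO-labelled library (13.45% of those kept, 12.7% to 14.2%) and in 1872 cells of the control library (27.3%, 26.3% to 28.4%). Insulin led in 7169 KO-labelled and 4007 control cells, Ppy in 143 KO-labelled and 150 control cells, and Sst in only 13 KO-labelled and 7 control cells. In these Sst-led cells no member other than Gcg had more than 22 UMIs in either library. The median depth of Gcg-led cells was 6429 UMIs in the KO-labelled and 7954 in the control library. Insulin RNA made up 1.36% of the UMIs of KO-labelled Gcg-led cells and 0.744% of those of control ones. Gcg was at least 10 times the next hormone in 36.5% of KO-labelled and 74.6% of control Gcg-led cells.

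The identity genes separated into 3 patterns. Ttr, Irx1, Irx2 and, at low counts, Slc38a5 stood more than 10 times as high in Gcg-led as in insulin-led cells. Gc was shared at about the same level with Ppy-led cells, and Slc7a2 had a small step over insulin-led cells. A gene counts as higher or lower where it passed 1.5-fold at a mean of at least 10 CPM with an interval that excludes no difference. Against insulin-led cells, the 5 identity genes that reached this level were all higher in Gcg-led cells of both libraries, and Slc38a5 did not reach it. Among all 8729 genes measured in that comparison, 3.99% were higher and 5.71% lower.

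Gcg was used to form the groups and its levels are given for description. In Gcg-led cells it stood at 92441 CPM in the KO-labelled and 106032 CPM in the control library. In insulin-led cells it stood at 4337 CPM (KO-labelled) and 6191 CPM (control), and in non-endocrine cells at 1848 CPM (KO-labelled) and 2674 CPM (control). Gcg UMIs were thus also found in cells led by insulin and in cells set aside as non-endocrine. Whether they come from the cell itself, from a second cell or from stray RNA was not tested. After each cell was thinned to 3000 UMIs, a Gcg UMI was seen in 71.3% of KO-labelled and 92.05% of control insulin-led cells, and in 62.6% of KO-labelled and 88.1% of control non-endocrine cells.

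Ttr (chr18:20665280-20674321, plus strand) was at 4648 CPM (4604 to 4693) in KO-labelled and 4282 CPM (4251 to 4313) in control Gcg-led cells. In Ppy-led cells it was at 582.6 CPM (KO-labelled) and 1096 CPM (control), and in insulin-led cells at 308.4 CPM (KO-labelled) and 371.1 CPM (control). The Gcg-led level was 15.1-fold the insulin-led one in the KO-labelled library and 11.5-fold in the control library. After thinning, 96.8% of KO-labelled and 95.5% of control Gcg-led cells had a Ttr UMI. The same share was 27.6% in KO-labelled and 34.1% in control insulin-led cells, and 6.59% in KO-labelled and 10.2% in control non-endocrine cells. Ttr RNA was therefore seen in nearly every Gcg-led cell and, at a lower level, in every other group.

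The Iroquois genes were sparse. Irx1 was at 54.9 CPM (50.2 to 60.0) in KO-labelled and 52.8 CPM (49.5 to 56.3) in control Gcg-led cells, against 3.63 CPM (KO-labelled) and 4.70 CPM (control) in insulin-led cells. The difference between these cell groups was 15.1-fold in the KO-labelled and 11.2-fold in the control library. Irx2 was at 87.1 CPM (81.1 to 93.4) in KO-labelled and 84.5 CPM (80.2 to 88.9) in control Gcg-led cells, and at 6.17 CPM (KO-labelled) and 7.65 CPM (control) in insulin-led cells, 14.1-fold apart in the KO-labelled and 11.05-fold in the control library. Both genes thus had an order of levels of Gcg-led, Ppy-led and insulin-led cells. In Ppy-led cells Irx1 was at 10.5 CPM (KO-labelled) and 14.2 CPM (control), and Irx2 at 26.8 CPM (KO-labelled) and 35.9 CPM (control). In KO-labelled Sst-led cells neither gene had a UMI among 87691 non-hormone UMIs, where a limit of 3 UMIs is 34.2 CPM and the upper end of the exact interval 42.1 CPM. In control Sst-led cells each gene had 1 UMI, or 13.2 CPM (0.333 to 73.3). In thinned Gcg-led cells an Irx1 UMI was seen in 14.97% (KO-labelled) and 13.8% (control), and an Irx2 UMI in 21.5% (KO-labelled) and 22.1% (control), while in thinned insulin-led cells neither gene was seen in more than 1.83% of either library.

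Gc was not particular to Gcg-led cells. Its level there was 262.6 CPM (252.2 to 273.4) in the KO-labelled and 206.3 CPM (199.7 to 213.1) in the control library. Ppy-led cells had 260.7 CPM (237.1 to 286.0) in the KO-labelled and 239.2 CPM (221.9 to 257.5) in the control library, which gives Gcg-led over Ppy-led ratios of 1.01 (KO-labelled) and 0.862 (control). The few Sst-led cells had 250.9 CPM (157.2 to 379.8) in the KO-labelled and 223.7 CPM (130.3 to 358.1) in the control library, so these groups did not differ beyond their intervals, except control Gcg-led from control Ppy-led cells. Insulin-led cells had little Gc, 29.9 CPM (KO-labelled) and 33.4 CPM (control), and the Gcg-led level was 8.775-fold (KO-labelled) and 6.17-fold (control) above theirs.

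The transporter genes differed in pattern. Slc7a2 (chr8:40862396-40922308, plus strand) was at 129.3 CPM (122.0 to 137.0) in KO-labelled and 135.6 CPM (130.3 to 141.2) in control Gcg-led cells. Insulin-led cells had 66.1 CPM (KO-labelled) and 58.9 CPM (control), and the ratio between these cell groups was 1.96 (KO-labelled) and 2.30 (control). Slc38a5 (chrX:8271133-8280179, plus strand) was at 14.7 CPM (12.3 to 17.4) in KO-labelled and 15.9 CPM (14.1 to 17.8) in control Gcg-led cells, from 133 UMIs (KO-labelled) and 280 UMIs (control). Slc38a5 stood in insulin-led cells at 1.41 CPM (KO-labelled) and 1.39 CPM (control), and in Ppy-led cells it had 1 UMI (KO-labelled) and 7 UMIs (control).

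Against Ppy-led cells, 4 members other than Gcg were higher in Gcg-led cells of both libraries: Ttr, Irx1, Irx2 and Slc7a2. The ratio was 7.98 (KO-labelled) and 3.91 (control) for Ttr, and 5.23 (KO-labelled) and 3.72 (control) for Irx1. It was 3.25 (KO-labelled) and 2.36 (control) for Irx2, and 1.73 (KO-labelled) and 1.97 (control) for Slc7a2. Of 8688 genes measured in that comparison, 1.74% were higher and 1.51% lower.

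**Figure D1:**
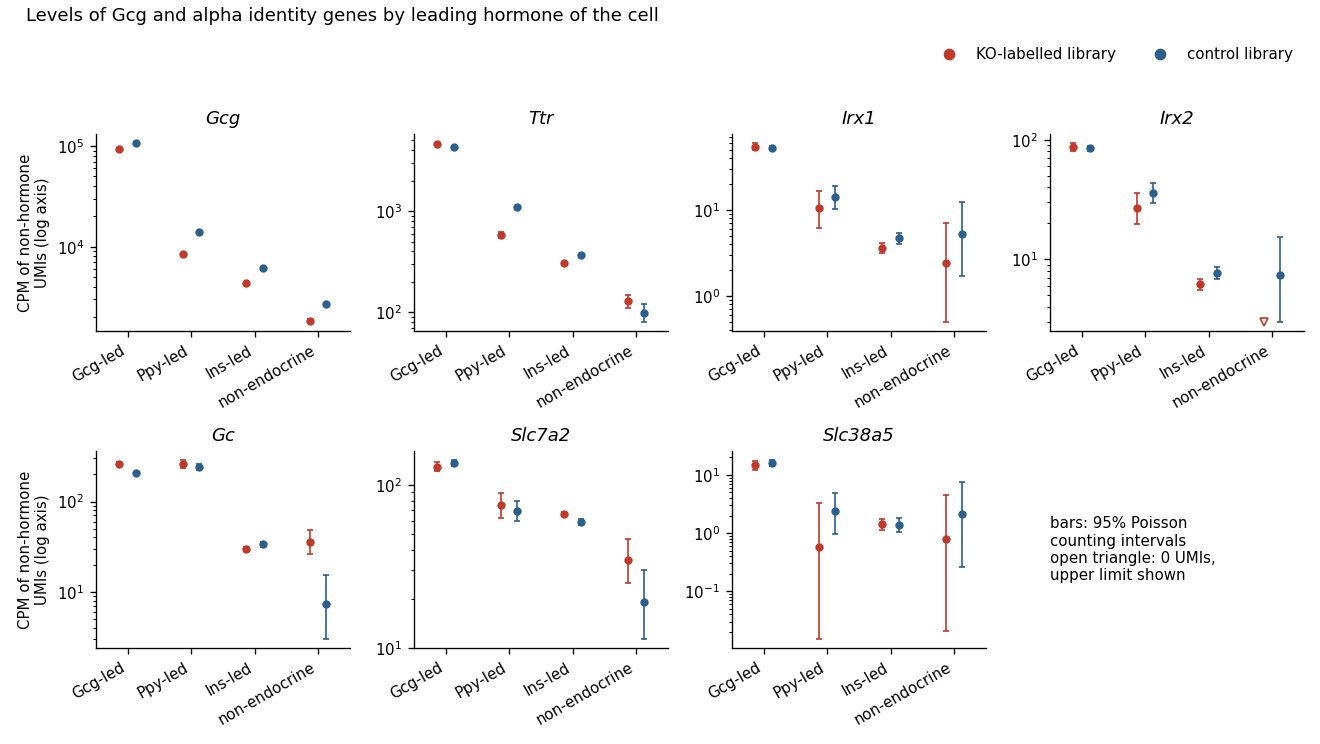
Level of each gene (CPM of non-hormone UMIs, log axis) in Gcg-led, Ppy-led, insulin-led and non-endocrine cells of the KO-labelled (red) and the control library (blue), with 95% Poisson intervals. Ttr, Irx1 and Irx2 step down over Gcg-led, Ppy-led and insulin-led cells, Gc is at 262.6 (KO-labelled) and 206.3 (control) in Gcg-led and at 260.7 (KO-labelled) and 239.2 (control) in Ppy-led cells, and an open triangle marks the upper limit where no UMI was seen.

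Because Gcg UMIs occurred in every cell group, the UMIs of each member were set against the Gcg UMIs of the same cells. The number seen in a group was divided by the number that the Gcg UMIs of that group would bring at the ratio found in Gcg-led cells. Gcg-led cells are chosen for high Gcg, so their ratio of a member to Gcg is low in part by that choice. A quotient above 1 therefore does not by itself show that a group makes the gene. In insulin-led cells this quotient was 1.41 (KO-labelled) and 1.48 (control) for Ttr. Irx1 had 1.41 (1.23 to 1.61) in the KO-labelled and 1.52 (1.315 to 1.76) in the control library, and Irx2 had 1.51 (1.36 to 1.68) in the KO-labelled and 1.55 (1.38 to 1.73) in the control library. Slc38a5 had 2.04 (1.625 to 2.54) in the KO-labelled and 1.497 (1.13 to 1.94) in the control library.

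Gc and Slc7a2 stood further from that ratio. In insulin-led cells Gc had 2.43 (KO-labelled) and 2.78 (control) times its accompanying amount, and in Ppy-led cells 10.8 (KO-labelled) and 8.82 (control) times. Slc7a2 had 10.9 (KO-labelled) and 7.44 (control) times in insulin-led cells and 6.28 (KO-labelled) and 3.87 (control) times in Ppy-led cells. In Ppy-led cells Irx2 had 3.35 (2.45 to 4.47) in the KO-labelled and 3.23 (2.645 to 3.91) in the control library, and Irx1 had 2.08 (1.23 to 3.29) in the KO-labelled and 2.05 (1.475 to 2.77) in the control library. Irx2 thus exceeded its accompanying amount more in Ppy-led than in insulin-led cells.

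**Figure D2:**
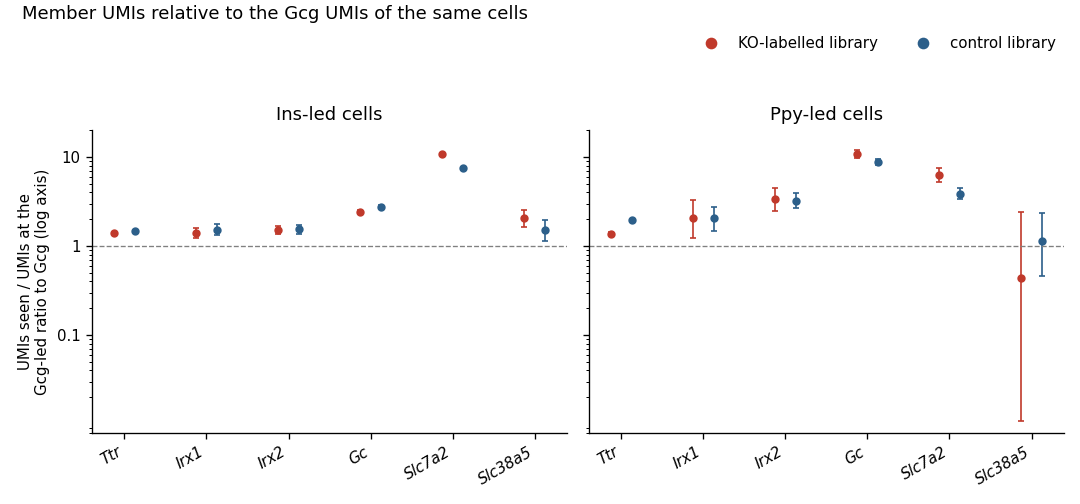
UMIs of each gene divided by the number that would accompany the Gcg UMIs of the same cells at the ratio of Gcg-led cells (log axis, dashed line at 1), in insulin-led and Ppy-led cells of the KO-labelled (red) and the control library (blue), with 95% Poisson intervals. Ttr, Irx1 and Irx2 lie between 1.41 and 1.55 in insulin-led cells, taken over all insulin-led cells, while Slc7a2 lies at 10.9 (KO-labelled) and 7.44 (control) there and Gc at 10.8 (KO-labelled) and 8.82 (control) in Ppy-led cells. Gcg-led cells are chosen for high Gcg, which in part raises the values of the other groups.

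These quotients over all insulin-led cells rest mostly on the few cells with much Gcg, so the cells were split by their own Gcg share. Less than 0.1% of UMIs came from Gcg in 5224 KO-labelled and 1895 control insulin-led cells, and 1% or more in 430 KO-labelled and 295 control ones, which held 82.9% (KO-labelled) and 79.3% (control) of the Gcg UMIs of insulin-led cells. Where Gcg was 1% or more, Ttr was at 0.902 (KO-labelled) and 1.15 (control) times its accompanying amount, Irx1 at 1.29 (KO-labelled) and 1.37 (control), and Irx2 at 1.13 (KO-labelled) and 1.215 (control). Under 0.1%, Ttr was at 6.602 (6.45 to 6.76) in the KO-labelled and 4.55 (4.40 to 4.71) in the control library. Irx2 was at 4.41 (3.55 to 5.42) in the KO-labelled and 2.505 (1.75 to 3.47) in the control library there, and Irx1 at 1.71 (1.07 to 2.59) in the KO-labelled and 1.45 (0.770 to 2.47) in the control library. These strata are formed by Gcg, which is also the divisor, so quotients in the low stratum are higher in part by that choice. In that stratum Gc was at 14.1 (KO-labelled) and 13.1 (control), and Slc7a2 at 101.7 (KO-labelled) and 49.6 (control). Slc38a5 was there at 8.15 (KO-labelled) and 2.595 (control). Whether insulin-led cells with little Gcg make Ttr or Irx2 was not tested. In the stratum under 0.1%, Irx1 stood at 0.468 CPM (0.293 to 0.708) in the KO-labelled and 0.573 CPM (0.305 to 0.980) in the control library. In the stratum of 1% or more it stood at 25.55 CPM (KO-labelled) and 25.1 CPM (control). Irx2 had the same form, with 1.91 CPM (KO-labelled) and 1.59 CPM (control) in the low stratum and 35.5 CPM (KO-labelled) and 35.7 CPM (control) in the high one.

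Slc7a2 differed least across these strata. It stood at 65.5 CPM (KO-labelled) and 50.45 CPM (control) in the low stratum and at 69.7 CPM (KO-labelled) and 75.04 CPM (control) in the high one. Gc stood at 18.5 CPM (KO-labelled) and 20.3 CPM (control) in the low stratum and at 106.0 CPM (KO-labelled) and 101.0 CPM (control) in the high one. Ttr kept a measurable level where Gcg was lowest, at 152.8 CPM (149.3 to 156.3) in the KO-labelled and 146.2 CPM (141.3 to 151.3) in the control library. In the high stratum Ttr stood at 1510 CPM (KO-labelled) and 1709 CPM (control). Insulin-led cells of the high stratum had medians of 16777.5 UMIs (KO-labelled) and 19190 UMIs (control), and those of the low stratum 9690.5 UMIs (KO-labelled) and 11820 UMIs (control). Whether barcodes of the high stratum hold more than 1 cell was not tested.

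Among Ppy-led cells the same split left 86 KO-labelled and 50 control cells with under 0.1% Gcg, and 37 KO-labelled and 56 control cells with 1% or more. Gc stood in the low stratum at 262.1 CPM (232.4 to 294.4) in the KO-labelled and 252.8 CPM (221.5 to 287.2) in the control library. In the high stratum it stood at 243.6 CPM (KO-labelled) and 241.1 CPM (control). Its intervals overlapped over all strata of Ppy-led cells. Irx2 stood in the low stratum at 16.7 CPM (9.88 to 26.3) in the KO-labelled and 16.1 CPM (9.03 to 26.6) in the control library. In the high stratum it stood at 61.6 CPM (KO-labelled) and 51.7 CPM (control). Irx1 had 1 UMI (KO-labelled) and 2 UMIs (control) in the low stratum and stood at 44.0 CPM (KO-labelled) and 29.3 CPM (control) in the high one. Slc7a2 stood in Ppy-led cells at 50.01 CPM (KO-labelled) and 52.7 CPM (control) in the low stratum and at 140.9 CPM (KO-labelled) and 86.95 CPM (control) in the high one. Ppy-led cells with little Gcg thus had as much Gc as any Ppy-led cell, some Irx2 and next to no Irx1.

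**Figure D3:**
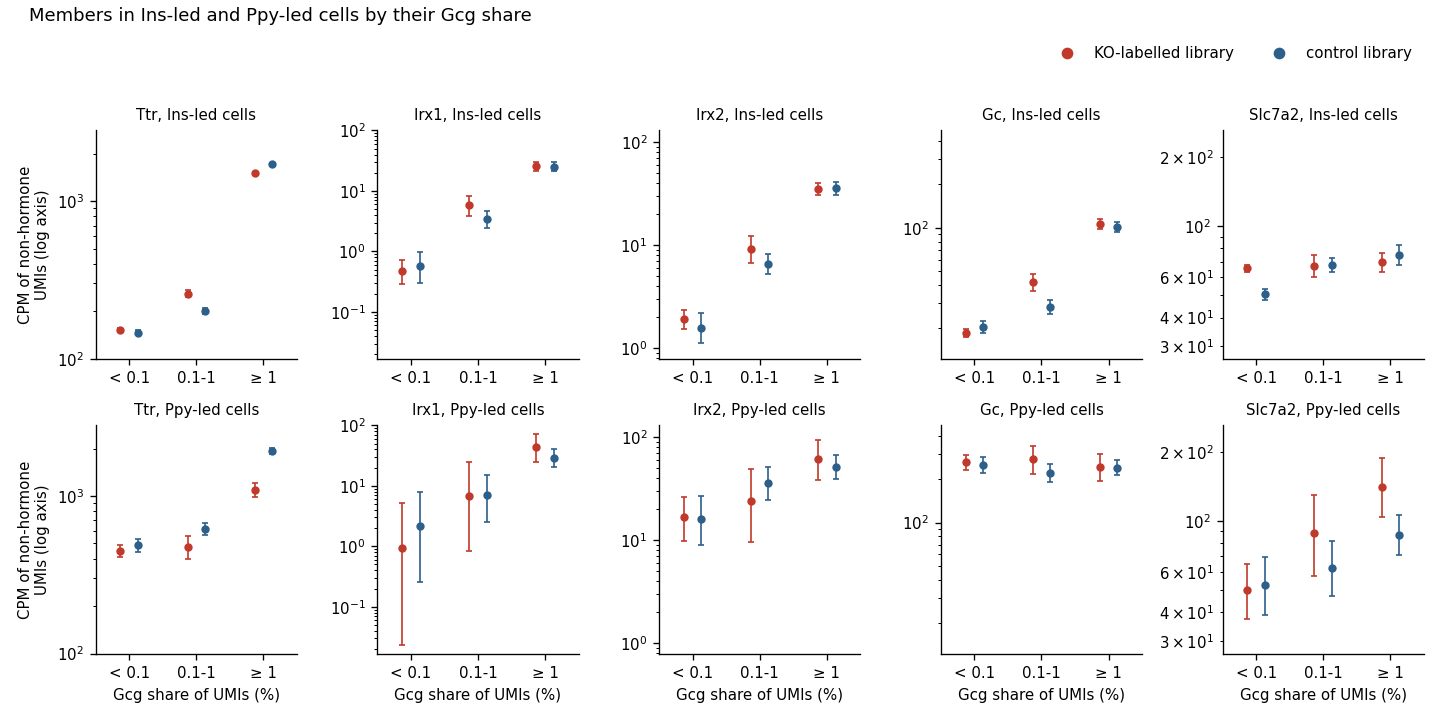
Levels of 5 genes (CPM of non-hormone UMIs, log axis) in insulin-led cells (top) and Ppy-led cells (bottom), split by the share of UMIs from Gcg, in the KO-labelled (red) and the control library (blue), with 95% Poisson intervals. Irx1 in insulin-led cells lies at 0.468 (KO-labelled) and 0.573 (control) where Gcg is under 0.1% and at 25.55 (KO-labelled) and 25.1 (control) where it is 1% or more, while Gc in Ppy-led cells lies between 222.2 and 275.3 in all strata.

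Within Gcg-led cells the Gcg share of all UMIs ran between 1.02% and 40.9% in the KO-labelled library, with a median of 8.49%, and between 1.00% and 50.3% in the control library, with a median of 8.70%. Cells were put in quartiles at 5.31%, 8.60% and 12.9%, taken over both libraries together. Ttr was the member that followed the Gcg share most closely. Over the quartiles, lowest first, it stood at 2027, 3893, 6158 and 10723 CPM in the KO-labelled library and at 1744, 2917, 4595 and 10179 CPM in the control library. The top quartile exceeded the bottom one by 2.40 (2.36 to 2.45) in the KO-labelled and 2.55 (2.51 to 2.58) in the control library on the log2 scale, where the medians over all genes were −0.25 (KO-labelled) and −0.31 (control).

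The Iroquois genes rose less and not evenly. Irx1 stood at 37.3, 55.75, 77.65 and 61.5 CPM over the quartiles in the KO-labelled library and at 35.8, 58.4, 65.15 and 58.5 CPM in the control library. Its top over bottom log2 ratio was 0.72 (0.28 to 1.15) in the KO-labelled and 0.71 (0.41 to 1.00) in the control library. Irx1 was highest in the third quartile of both libraries. Irx2 stood at 66.4, 91.2, 104.0 and 105.5 CPM in the KO-labelled library and at 63.2, 87.2, 96.7 and 101.7 CPM in the control library, with log2 ratios of 0.67 (0.34 to 0.99) in the KO-labelled and 0.69 (0.47 to 0.91) in the control library. Its bottom quartile was low, and the intervals of the other quartiles overlapped. Slc38a5 stood in the bottom quartile at 9.485 CPM (KO-labelled) and 9.95 CPM (control) and in the top one at 22.4 CPM (KO-labelled) and 23.4 CPM (control), a log2 ratio of 1.24 (0.44 to 2.03) in the KO-labelled and 1.23 (0.72 to 1.76) in the control library.

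Gc and Slc7a2 were highest in the middle quartiles. Gc stood at 235.0, 306.6, 282.3 and 211.8 CPM over the quartiles in the KO-labelled library and at 173.4, 240.9, 232.5 and 179.1 CPM in the control library. Its top over bottom log2 ratio was −0.15 (−0.36 to 0.06) in the KO-labelled and 0.05 (−0.10 to 0.20) in the control library. Under stricter settings Gc was lower in the top quartile, at −0.92 (KO-labelled) and −0.81 (control) where Gcg was at least 10 times the next hormone and at −0.67 (KO-labelled) and −0.53 (control) where it was at least 5% of UMIs. Slc7a2 was highest in the third quartile, at 159.6 CPM (KO-labelled) and 170.8 CPM (control), and its log2 ratio was 0.43 (0.16 to 0.70) in the KO-labelled and −0.02 (−0.20 to 0.16) in the control library. By the 1.5-fold rule, 4 of the 6 members other than Gcg were higher in the top quartile of both libraries and none was lower. Of 8538 genes measured, 1.36% were higher and 10.2% lower. With Gcg at least 10 times the next hormone the count was 1 of 6, Ttr, and the log2 ratios of Irx2 and Slc38a5 in the KO-labelled library were −0.17 and −1.06.

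In the ranks of single cells Ttr also stood apart from the other members. Spearman's rho between Gcg share and level was 0.46 for Ttr over 1189 KO-labelled cells and 0.49 over 1872 control cells. It was 0.00 (KO-labelled) and 0.02 (control) for Irx1, −0.00 (KO-labelled) and 0.04 (control) for Irx2, and −0.01 (KO-labelled) and 0.02 (control) for Slc38a5. Gc had −0.11 (KO-labelled) and −0.08 (control), and Slc7a2 had −0.09 in both libraries. These cells share a library and differ in depth, and most of them have no UMI of the sparse genes. The Gcg share itself had a rho of −0.28 (KO-labelled) and −0.14 (control) with total UMIs. Median depth was 5167.5 UMIs in the top and 8006.5 in the bottom quartile of the KO-labelled library, and 6985 in the top and 8496 in the bottom quartile of the control library. Summed beta-cell markers stood at 343.9 CPM in the top and 438.8 CPM in the bottom quartile of the KO-labelled library, and at 273.6 CPM in the top and 456.9 CPM in the bottom quartile of the control library. Summed acinar markers stood at 7.48 CPM in the top and 3.98 CPM in the bottom quartile of the KO-labelled library, and at 5.40 CPM in the top and 81.1 CPM in the bottom quartile of the control library. The median mitochondrial share was 1.28% in the top and 2.19% in the bottom quartile of the KO-labelled library, and 1.93% in the top and 3.96% in the bottom quartile of the control library. Summed stress markers stood at 697.8 CPM in the top and 881.2 CPM in the bottom quartile of the KO-labelled library, and at 928.0 CPM in the top and 968.1 CPM in the bottom quartile of the control library. The part of depth, RNA quality and RNA of these other cells in these relations was not tested.

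**Figure D4:**
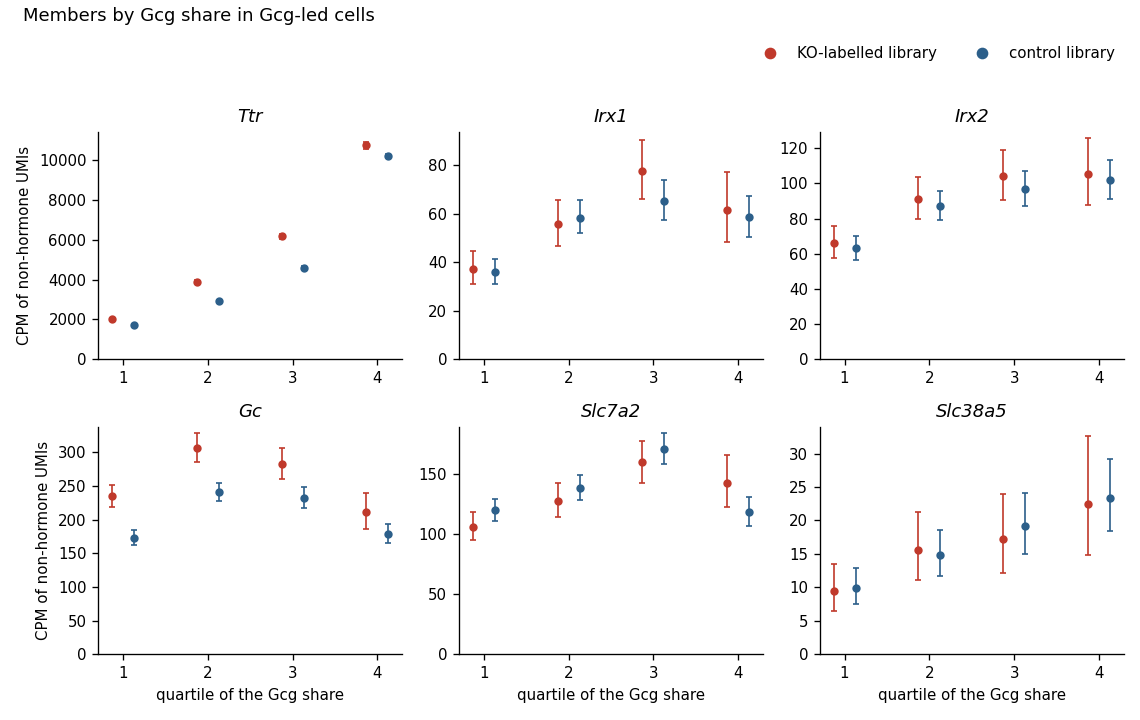
Level of the 6 identity genes (CPM of non-hormone UMIs) in Gcg-led cells by quartile of the Gcg share, lowest (1) to highest (4), in the KO-labelled (red) and the control library (blue), with 95% Poisson intervals. Ttr stands at 10723 (KO-labelled) and 10179 (control) in the fourth quartile and at 2027 (KO-labelled) and 1744 (control) in the first, and Gc is highest in the second.

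Detection of several members in a single cell was limited by sparse counts. In Gcg-led cells thinned to 3000 UMIs, 2 or fewer of the 6 identity genes had a UMI in 763 of 1109 KO-labelled and in 1273 of 1748 control cells. Irx1 and Irx2, neighbours on chromosome 13, were seen together in 43 KO-labelled and 58 control cells, where independent detection would give 35.6 (KO-labelled) and 53.4 (control). Over the 15 pairs of the 6 genes, the number of cells with both lay between 0.666 and 1.41 times that of independent detection in the KO-labelled library and between 0.888 and 1.61 times in the control library. The extremes in each library were pairs that include Slc38a5, which was seen in 42 KO-labelled and 63 control cells.

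The libraries were then compared within Gcg-led cells, which are not the cells targeted by a beta-cell deletion. None of the 7 genes passed 1.5-fold. Of 8925 genes measured, 0.706% were higher and 0.773% lower in the KO-labelled library, and the median log2 ratio of all genes was −0.00. Gc had the largest difference over all Gcg-led cells, 262.6 CPM in KO-labelled and 206.3 CPM in control cells, a log2 ratio of 0.35 (0.27 to 0.42) at percentile 95.8 of all genes. It kept its direction in each quartile of the Gcg share, at 0.44, 0.35, 0.28 and 0.24, lowest quartile first. After thinning, a Gc UMI was seen in 45.6% (42.7% to 48.6%) of KO-labelled and 36.3% (34.0% to 38.6%) of control Gcg-led cells.

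Ttr had a log2 ratio between the libraries of 0.12 (0.10 to 0.14) in Gcg-led cells, which was −0.00 with each cell weighted equally. Within quartiles of the Gcg share, lowest first, Ttr had 0.22, 0.42, 0.42 and 0.08, above Gc in both middle quartiles. Over all Gcg-led cells Gcg had a log2 ratio of −0.20 (−0.20 to −0.19). For every 1000 Gcg UMIs there were 50.3 Ttr UMIs in KO-labelled and 40.4 in control Gcg-led cells. The sign for Gcg depended on how strictly cells were chosen. In cells where Gcg was at least 10 times the next hormone, 434 KO-labelled and 1396 control cells, the log2 ratio was 0.16 for Gcg and 0.47 for Ttr. The Iroquois genes were near equal, at 0.06 (−0.10 to 0.21) for Irx1 and 0.04 (−0.08 to 0.17) for Irx2. Slc7a2 had −0.07 (−0.17 to 0.03) and Slc38a5 −0.11 (−0.42 to 0.19), so the intervals of these 4 genes include no difference.

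Outside Gcg-led cells, members passed 1.5-fold between the libraries in Ppy-led, Sst-led and non-endocrine cells and in cells without a leading hormone. In the few Sst-led cells this was Gcg, with 153 UMIs (KO-labelled) and 330 UMIs (control). Its log2 ratio there was −1.32 (−1.60 to −1.03), at percentile 12.6 of all genes in those cells. In Ppy-led cells Gcg was at 8494 CPM in the KO-labelled and 13938 CPM in the control library, a log2 ratio of −0.71 (−0.74 to −0.69). Ttr was at 582.6 CPM in KO-labelled and 1096 CPM in control Ppy-led cells, a log2 ratio of −0.91 (−1.02 to −0.81). Both were lower in the KO-labelled library by the 1.5-fold rule, as were 2.7% of 8883 genes measured there, while 2.77% were higher. Of Ppy-led cells, 25.9% in the KO-labelled and 37.3% in the control library had 1% or more of their UMIs from Gcg. In Ppy-led cells with under 0.1% Gcg, Ttr stood at 450.0 CPM (410.9 to 491.9) in the KO-labelled and 486.2 CPM (442.4 to 533.1) in the control library, and these intervals overlap. At 0.1% to 1% it stood at 472.4 CPM (397.2 to 557.8) in the KO-labelled and 620.2 CPM (568.8 to 675) in the control library. At 1% or more Ttr stood at 1097.7 CPM (989.2 to 1214.8) in the KO-labelled and 1937.9 CPM (1858.7 to 2019.7) in the control library. Ttr was thus lower in the KO-labelled library beyond its intervals in both strata with more Gcg.

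In insulin-led cells Gcg had a log2 ratio of −0.51, Ttr of −0.27 (−0.30 to −0.24), Gc of −0.16 (−0.26 to −0.06), Irx1 of −0.37 (−0.66 to −0.08), Irx2 of −0.31 (−0.53 to −0.09) and Slc7a2 of 0.16 (0.09 to 0.24). None of these passed 1.5-fold, and Irx1 and Irx2 were under 10 CPM there, while of 8901 genes measured in those cells 7.75% were higher and 2.43% lower. The KO-labelled library had the smaller share of Gcg-led cells, 13.45% against 27.3% in the control library, and the Gcg level of insulin-led and non-endocrine cells was lower with it. The part of that Gcg RNA in these differences was not tested.

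No hormone led in 228 KO-labelled and 753 control cells. Gc stood there at 85.35 CPM in the KO-labelled and 26.4 CPM in the control library, a log2 ratio of 1.69 (1.41 to 1.98), and Gcg at 660.5 CPM in the KO-labelled and 1198 CPM in the control library, −0.86 (−0.94 to −0.78). Of 9005 genes measured in these cells, 6.86% were higher and 5.27% lower. Cells without a leading hormone differed in make-up between the libraries. Summed acinar markers stood at 3473.9 CPM in the KO-labelled and 115.1 CPM in the control library, and ductal markers at 1216.3 CPM (KO-labelled) and 432.3 CPM (control). The part of this make-up in the Gc and Gcg ratios was not tested. In the 100 KO-labelled and 61 control non-endocrine cells, Gc had 45 UMIs (KO-labelled) and 7 UMIs (control), a log2 ratio of 2.29 (1.13 to 3.68), and Slc7a2 had 43 UMIs (KO-labelled) and 18 UMIs (control), 0.86 (0.03 to 1.74). Both passed the rule, as higher, and of 8614 genes measured there 5.11% were higher and 11.2% lower. The Gc UMIs came from only 4 KO-labelled and 5 control cells, a clustering that the interval does not cover. Summed mesenchymal markers of the non-endocrine cells stood at 3311.5 CPM (KO-labelled) and 1392.2 CPM (control), and endothelial markers at 605.2 CPM (KO-labelled) and 2122.5 CPM (control). The part of this make-up in the Gc and Slc7a2 ratios was not tested.

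**Figure D5:**
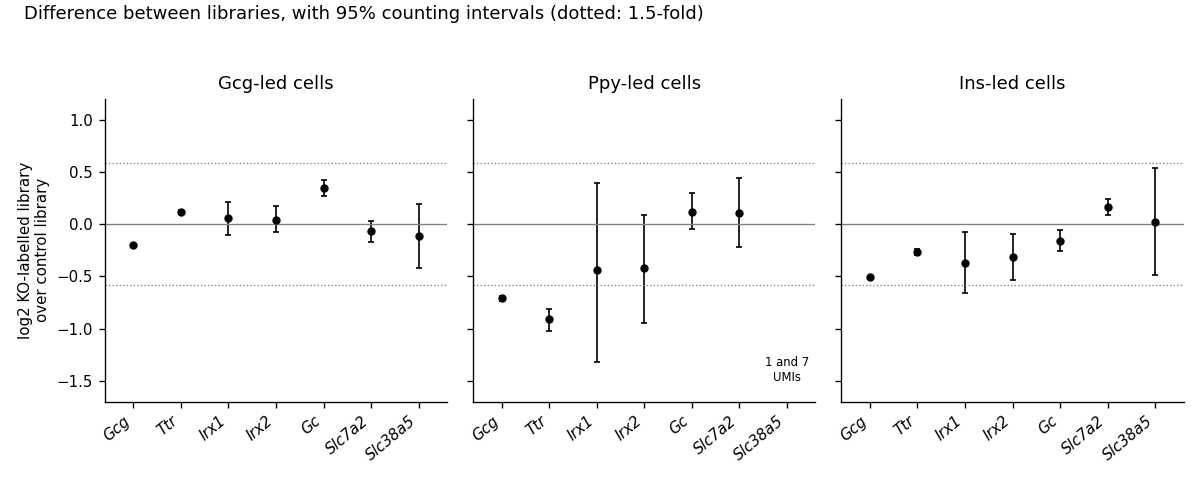
Log2 ratio of the KO-labelled over the control library for each gene in Gcg-led, Ppy-led and insulin-led cells, with exact 95% counting intervals and dotted lines at 1.5-fold. In Gcg-led cells all genes lie inside the dotted lines with Gc highest at 0.35, and in Ppy-led cells Gcg and Ttr lie at −0.71 and −0.91.

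Genes that work with the members were described from lists. Of all 8729 genes measured, 3.99% were higher and 5.71% lower in Gcg-led than in insulin-led cells of both libraries. Between libraries in Gcg-led cells, 0.706% of 8925 genes were higher and 0.773% lower. The counts of each list stand beside these shares. Of 14 transcription factors of the alpha lineage or of islet cells in general that reached 10 CPM, 5 were higher and 1 lower in Gcg-led than in insulin-led cells of both libraries, with a median log2 ratio of 0.38 against −0.12 over all genes. Etv1, a factor of the ETS family, stood at 335.7 CPM in KO-labelled and 314.1 CPM in control Gcg-led cells, 3.56 (KO-labelled) and 3.34 (control) above insulin-led cells on the log2 scale. Foxp2 and Foxp1, forkhead factors, were also among the higher ones, and the lower one was Insm1. No factor of this list passed 1.5-fold between libraries in Gcg-led cells, with a median of 0.05 against −0.00 over all genes. Of 12 measured genes of a further list of alpha-cell genes, 4 were higher than in insulin-led cells (Gria3, Wnk3, Smarca1 and Ffar4) and 2 were lower, with a median of 0.32, and none passed between libraries.

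Of the 6 Iroquois genes of the mouse, Irx1 and Irx2 were the only ones with more than 1 UMI in Gcg-led cells. Irx5 had 0 (KO-labelled) and 1 (control), and Irx3, Irx4 and Irx6 had none in either library. Rbp4, which encodes the retinol-binding protein that travels with transthyretin, stood at 1641 CPM in KO-labelled and 1666 CPM in control Gcg-led cells, and at 258.0 CPM (KO-labelled) and 213.3 CPM (control) in insulin-led cells. Its top over bottom ratio by Gcg share was 0.69 (KO-labelled) and 0.59 (control) on the log2 scale. Rbp4 is also used as a marker of delta cells. The cell-side partners Stra6, Crabp2 and Lrat had 1 UMI or none in Gcg-led cells of each library.

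The genes around the vitamin D-binding protein were little expressed. Vdr, the nuclear receptor, stood at 33.3 CPM in KO-labelled and 35.4 CPM in control Gcg-led cells and did not pass 1.5-fold over insulin-led cells. Rxra, its binding partner, was 0.83 (KO-labelled) and 1.14 (control) above insulin-led cells on the log2 scale and passed. The albumin relatives Alb, Afp and Afm stood at 1.02 CPM or less in Gcg-led cells, so Gc was the gene of this family seen there.

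Among amino acid transporter genes other than the members, 19 reached 10 CPM. Of all 8729 genes measured, 3.99% were higher and 5.71% lower in Gcg-led than in insulin-led cells of both libraries. Of the 19, 1 was higher and none was lower. The 19 genes had a median log2 ratio of 0.07 against −0.12 over all genes. The higher one was Slc7a11, a cystine transporter gene, at 14.0 CPM in KO-labelled and 16.25 CPM in control Gcg-led cells, against 6.33 CPM (KO-labelled) and 9.53 CPM (control) in insulin-led cells. Between libraries none of the 19 passed 1.5-fold in Gcg-led cells, where 0.706% of 8925 genes measured were higher and 0.773% lower. The largest ratio among the 19 was that of Slc38a2, a glutamine transporter gene. It stood at 165.2 CPM in the KO-labelled and 224.8 CPM in the control library, −0.44 (−0.53 to −0.36) on the log2 scale.

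The list for the processing and granule storage of prohormones had 11 genes. Of all 8729 genes measured, 3.99% were higher and 5.71% lower in Gcg-led than in insulin-led cells of both libraries. Of the 11 genes, 1 was higher and 3 were lower. The 11 genes had a median log2 ratio of −0.48 against −0.12 over all genes. The higher one was Pcsk1n, which encodes a granule protein that inhibits the convertase PC1/3. It stood at 2243 CPM in KO-labelled and 2476 CPM in control Gcg-led cells, against 1101 CPM (KO-labelled) and 1170 CPM (control) in insulin-led cells. Pcsk1, the convertase that yields GLP-1 rather than glucagon, stood at 20.6 CPM in KO-labelled and 17.2 CPM in control Gcg-led cells, against 184.8 CPM (KO-labelled) and 98.9 CPM (control). The other lower ones were Scg2 and Chga, and the 3 lower genes are named after their values were seen. Pcsk2, the convertase for glucagon, stood at 2292 CPM (KO-labelled) and 2752 CPM (control) in Gcg-led cells. By Gcg share, its top over bottom log2 ratio was 0.64 (KO-labelled) and 0.82 (control). This ratio was larger for Pcsk1n, at 0.92 (KO-labelled) and 1.17 (control), and for Scg5, at 0.87 (KO-labelled) and 1.03 (control). Of the 11 genes, these 3 were higher in the top quartile of both libraries and 1, Pcsk1, was lower. Of 8538 genes measured, 1.36% were higher and 10.2% lower.

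Between the libraries 2 of the 11 genes of that list passed 1.5-fold in Gcg-led cells, both as higher in the KO-labelled library. Of 8925 genes measured there, 0.706% were higher and 0.773% lower. The 2 genes encode granins, the acidic proteins of hormone granules. Chga stood at 2198 CPM in KO-labelled and 1393 CPM in control Gcg-led cells, with 0.66 (0.63 to 0.68) on the log2 scale. Chgb stood at 1001 CPM in KO-labelled and 510.4 CPM in control Gcg-led cells, with 0.97 (0.93 to 1.01). In insulin-led cells Chga stood at 5928 CPM (KO-labelled) and 2416 CPM (control), and Chgb at 3746 CPM (KO-labelled) and 758.7 CPM (control). Insulin RNA made up 1.36% of UMIs in KO-labelled and 0.744% in control Gcg-led cells, and its part in the granin values was not tested.

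The genes most like Gcg in their profile over the 4 hormone-led groups of both libraries, 8 points in all, were ranked by Pearson's r of log2 levels. Among 5718 genes, Ttr came first with r = 0.991, followed by Zfp704, Ralgapa2, Slf1, Il6st, Camk2d, Slc6a17 and Rpl9. Irx1 had rank 15, Irx2 rank 18, Slc7a2 rank 67 and Gc rank 1660. Zfp704 stood at 169.1 CPM in KO-labelled and 189.7 CPM in control Gcg-led cells and at 96.0 CPM (KO-labelled) and 104.4 CPM (control) in insulin-led cells, a far smaller step than that of Ttr. The points share their libraries, and the Sst-led ones rest on few cells.

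Over single Gcg-led cells, ranked by rho with the Gcg share, Ttr had rank 3 of 1534 genes. Cst3, which encodes the secreted protease inhibitor cystatin C, had rank 1 with a rho of 0.56 (KO-labelled) and 0.59 (control). Rpl37a, Rpl15, Rps3a1, Rpl27a, Rpl9 and Rps14, genes of ribosomal proteins, made up the other 6 of the first 8. In the top quartile of the Gcg share Cst3 was 1.09 (KO-labelled) and 1.12 (control) above the bottom one on the log2 scale, a smaller step than the 2.40 (KO-labelled) and 2.55 (control) of Ttr.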

How the data were processed

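UMI counts were deposited untransformed, 1 table of genes by cell barcodes a library. Cell Ranger 6.0.0 is named per the file headers, and the build mm10, R 4.1.1 and Seurat 4.1.0 are named in the submitters' processing notes. How barcodes were called as cells is not given in the sources used here. UMIs were summed over the cells of each group and library with Python 3.11.15, and no model was fitted. Levels have exact Poisson intervals, shares Clopper-Pearson intervals and ratios exact conditional intervals. The ratio rule was tested on simulated counts. No doublets were called or removed. Promoter windows come from RefSeq and gene positions from GENCODE mouse release 21, with 7 of 7 identifiers matched. The members and gene lists were chosen with earlier results of these data known. Named are the 7 members, the 8 genes most like Gcg by each of 2 measures, and up to 4 genes a list with the largest ratios; other genes that make up a count of 5 or fewer are named after their values were seen. Other hormone-share limits, cell filters, scalings and weights were tried. Some genes of the lists are not reported here.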

Additional observations from a re-analysis of the deposited data

Results flagged for a closer look

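Differences between the libraries ran in opposite directions in different cell groups for 2 members where the intervals of both ratios excluded no difference, and the contrast between the groups was not tested. Ttr was above the control library by 0.12 (log2) in Gcg-led cells of the KO-labelled library and below it in Ppy-led cells, at −0.91, and in insulin-led cells, at −0.27. Gc was above the control library by 0.35 in Gcg-led cells and below it in insulin-led cells, at −0.16. Gcg itself was lower in all 3 groups, at −0.20 in Gcg-led, −0.71 in Ppy-led and −0.51 in insulin-led cells. Irx1, Irx2 and Slc7a2 also had opposite signs in Gcg-led and insulin-led cells, but their intervals in Gcg-led cells include no difference.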

How the results depend on the processing

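No paired analysis was possible because each genotype has 1 library, and for the same reason no replicate could be left out. The counts of members past 1.5-fold between libraries (0 higher, 0 lower) and between Gcg-led and insulin-led cells (5 besides Gcg, which forms these groups) were the same under each alternative run for them. The count of members higher in the top quartile of the Gcg share, 4, was 2 with levels relative to all UMIs, 2 with the leading hormone at least 3 times the next, 1 at 10 times, 2 with it at least 5% of UMIs, 2 with each cell weighted equally, 3 at no more than 10% mitochondrial UMIs and 3 in cells of at least 3000 UMIs. Among values whose interval excluded no difference, signs turned for Gcg between libraries at 10 times the next hormone (0.16) and within quartiles 1 and 3 (0.02 and 0.02), and for Ttr between libraries with cells weighted equally (−0.00). By Gcg share in the KO-labelled library they turned at 10 times for Irx2 (−0.17) and Slc38a5 (−1.06), and for Slc7a2 with 5% of UMIs (−0.04) and with cells weighted equally (−0.09). Of values whose interval included no difference, Gc by Gcg share in the control library (0.05) ran from −0.81 to 0.10, and between libraries Slc38a5 (−0.11) reached 0.31, Slc7a2 (−0.07) 0.27 and Irx1 (0.06) −0.07. The share of all genes past 1.5-fold between libraries in Gcg-led cells was 1.48%, and 4.50% at a minimum mean of 1 CPM. The cause of these changes was not tested. The Gc difference between libraries ran from 0.24 to 0.44 over 16 alternatives, and the Ttr difference between quartiles from 1.69 to 2.40 in the KO-labelled library and from 2.01 to 2.67 in the control library. Leaving out the barcodes that both libraries share was chosen after seeing the data and changed no count. Slc38a5 and the Sst-led cells are limited by their few UMIs.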
